A study of Rattus norvegicus with 10 samples.

Results

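The adrenergic receptors are the cell-surface receptors for noradrenaline and adrenaline, and 8 of their genes (Adra1a, Adra1b, Adra1d, Adra2a, Adra2b, Adra2c, Adrb1 and Adrb3) were followed here. The members were the genes of these names for which a probe carried the matching RefSeq transcript, which gave 8 probes, 1 per gene, among 30367 probes, and 8 genes among 15168 named ones. Each member was well above background on all 10 arrays and entered the test, which covered 14711 genes. Messenger RNA came from the submandibular gland, one of the major salivary glands, of 5 spontaneously hypertensive rats (SHR) and 5 Wistar Kyoto rats (WKY), the strain used as the normotensive control. All animals were males of 14 weeks, and the WKY rats had been matched to the SHR rats in age and weight. The labels name no treatment. Strain background and blood pressure cannot be told apart in this design. Each rat had its own one-colour Agilent array, named here by the numbers of its title.

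Noradrenaline from sympathetic nerve endings reaches the gland's acinar, duct, myoepithelial and vessel cells through 3 classes of receptor. Alpha-1 receptors couple to Gq proteins, which activate phospholipase C and release calcium from stores. Alpha-2 receptors couple to Gi proteins, which restrain adenylyl cyclase, and on nerve endings they limit further noradrenaline release. Beta receptors couple to Gs proteins and raise cyclic AMP, the signal that drives protein secretion in salivary cells.

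Levels below are log2 intensities relative to the 75th percentile of the same array, so that 0 is the intensity of that percentile and 1 unit is a doubling. Differences are SHR minus WKY on that scale. A gene was called at a limma adjusted p below 0.05, with Benjamini-Hochberg adjustment over all 14711 genes. Levels of different receptors are not set against each other, since their probes differ.

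The arrays had a 75th percentile of 333 to 648 intensity units, 94.8% to 97.7% of spots well above background and 0 saturated spots. SHR 3-3 was unlike its strain: 420 genes were lower there by 2-fold or more than in the average of its strain mates, where the same count for those mates was 31 to 45. Arrays with the same scan time were taken to be on 1 slide, an inference that gave 3 slides. Slide 1 had SHR arrays only (2-3, 3-1, 3-3, 3-4), slide 2 mixed SHR 2-1 and WKY 1-5, 4-1, 4-2, and slide 3 had WKY arrays only (1-2, 1-3).

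Of the 8 receptor genes, 1 (Adra2a) was lower in SHR past the threshold and 0 were higher, where 4.36% of all genes passed in either direction, 1.51% as higher and 2.85% as lower. With all kept probes tested, named or not, 1 of the 8 receptor probes passed, against 3.84% of probes. The median difference over the receptors was −0.20, against −0.02 over all genes tested, and 5 of the 8 lay below 0. All 3 alpha-2 receptor genes had an unadjusted limma p below 0.05 with lower means in SHR. Thus 3 of 8 receptors met that criterion, against 20.3% of all genes (12.3% as lower and 8.05% as higher). By the exact two-sided permutation test (5 arrays against 5, unadjusted), Adra1d, higher in SHR, was also below 0.05. The exact permutation test gave p = 0.0317 for Adra1d, 0.0397 for Adra2b, 0.0476 for Adra2c and 0.00794 for Adra2a. The remaining receptors had an exact permutation p of 0.222 or more. A low p in the exact permutation test was therefore not confined to the alpha-2 class.

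Because the alpha-2 class held the called receptor, the bases just upstream of its 3 genes are shown, taken from RefSeq for assembly GRCr8, in which 6 of the 8 receptors had an entry. Each stretch is the 250 bases before the gene's start, written 5′ to 3′ on the gene's own strand, and capitals mark a GC box (GGGCGG on either strand).
Adra2a upstream stretch, chr1:263066530-263066779, plus strand: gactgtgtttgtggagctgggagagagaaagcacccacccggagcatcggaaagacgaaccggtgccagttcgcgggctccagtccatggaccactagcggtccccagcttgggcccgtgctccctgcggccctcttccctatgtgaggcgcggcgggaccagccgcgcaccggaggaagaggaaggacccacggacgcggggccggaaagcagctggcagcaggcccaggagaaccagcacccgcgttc
Adra2b upstream stretch, chr3:135038231-135038480, plus strand: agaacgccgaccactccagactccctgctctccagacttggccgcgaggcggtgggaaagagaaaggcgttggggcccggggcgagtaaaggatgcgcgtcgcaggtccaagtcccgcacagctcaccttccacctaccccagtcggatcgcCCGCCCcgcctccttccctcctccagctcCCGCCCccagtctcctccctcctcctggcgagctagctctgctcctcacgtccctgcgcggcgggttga
Adra2c upstream stretch, chr14:79697477-79697726, minus strand: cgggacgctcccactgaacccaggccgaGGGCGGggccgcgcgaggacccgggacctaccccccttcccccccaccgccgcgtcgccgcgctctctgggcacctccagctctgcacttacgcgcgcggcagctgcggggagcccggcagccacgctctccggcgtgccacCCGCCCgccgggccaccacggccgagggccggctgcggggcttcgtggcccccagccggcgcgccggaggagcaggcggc

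The stretch of Adra2a held 0 GC boxes, whereas those of Adra2b and Adra2c held 2 each, and 30.5% of 33469 promoters of the same length in the table held at least 1. None of the 3 held a cyclic AMP response element half-site (TGACG, both strands, found in 18.2% of promoters) or a TATA box (TATAAA, both strands). Among the receptors with an entry, Adrb1 alone held a TGACG match. The share of G and C was 67.6% in the Adra2a stretch, 68.0% in Adra2b and 80.4% in Adra2c, against a median of 51.2% over all promoters. These matches describe the letters and no binding was measured.

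Adra2a encodes the alpha-2A receptor, the main presynaptic brake on noradrenaline release. Its level was −3.62, −3.60, −3.55, −4.49 and −3.30 in arrays SHR 2-1, 2-3, 3-1, 3-3 and 3-4, against −2.93, −2.90, −3.0, −3.04 and −2.90 in arrays WKY 1-2, 1-3, 1-5, 4-1 and 4-2. Every SHR array lay below every WKY array, and SHR 3-3 was far below the other SHR arrays. Adra2a averaged −3.71 ± 0.46 in SHR and −2.95 ± 0.07 in WKY (SD, n = 5 each), a 1.69-fold lower level in SHR. The log2 difference was −0.76 ± 0.18 SE (95% interval −1.15 to −0.37, limma adjusted p = 0.0337). The exact two-sided permutation test over the arrays gave p = 0.00794, the smallest that 5 arrays against 5 can give, unadjusted. Adra2a was the 1 receptor of 8 whose strains did not overlap, where 7.25% of all genes had no overlap and 4.11% had none with SHR lower.

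Without SHR 3-3 the log2 difference in Adra2a was −0.56 ± 0.09 SE and the limma adjusted p 0.00329, with an SHR mean of −3.52 ± 0.15 (SD, n = 4). The probe was dim: intensities ran from 14.8 to 55.4 in SHR and from 57.7 to 79.7 in WKY, and in SHR 3-3 the probe stood 1.42-fold over the lowest probe counted as above background. The call did not pass with quantile normalisation (−0.66, limma adjusted p = 0.0549), with the authors' log2 values (−0.66, 0.0556), or with normexp background correction and quantile normalisation (normexp below; −0.27, 0.0561). Normexp was run with an added offset of 50, which by construction narrows the log2 differences of probes this dim. The call was also lost without SHR 2-3 (limma adjusted p = 0.0574), WKY 1-2 (0.0820), WKY 1-3 (0.0875), WKY 1-5 (0.0617), WKY 4-1 (0.0652) or WKY 4-2 (0.0657).

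The log2 ratio of Adra2a to another receptor on the same array does not depend on the scaling between arrays, and it was computed for the other 7 receptors after the data had been seen. Its difference between the strains is the Adra2a difference minus that of the other receptor, so a value below 0 for all 7 follows from Adra2a having the lowest difference of the 8 and adds no evidence. The values ran from −0.41 (against Adra2b) to −0.92 (against Adrb3). Set against Adra1b, the log2 ratio averaged −2.41 ± 0.17 in SHR and −1.77 ± 0.11 in WKY (SD, n = 5 each). In that ratio SHR 3-3, at −2.22, was no longer apart from the other SHR arrays, which reached −2.63. Adra1b was itself low in SHR 3-3 (−2.28). In every other ratio SHR 3-3 was the lowest SHR array, from −1.41 (against Adra2c) to −8.01 (against Adra2b). The strains did not overlap in the ratios to Adra1b, Adra1d and Adrb3 and overlapped in the other 4. Adra2a itself did not overlap between the strains, and Adra1d and Adrb3 had differences above 0, so this count adds no evidence either. The share without overlap among ratios to all other genes was not computed. Without SHR 3-3 the strain differences in the ratios were −0.16 (against Adra1a) to −0.70 (against Adrb3). They were not tested.

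Adra2b encodes the alpha-2B receptor, which is found on vascular smooth muscle. It stood at 3.28, 3.17, 3.33, 3.52 and 3.51 in SHR 2-1, 2-3, 3-1, 3-3 and 3-4, against 3.77, 3.37, 4.21, 3.61 and 3.61 in WKY 1-2, 1-3, 1-5, 4-1 and 4-2. The strains overlapped through WKY 1-3, the lowest WKY array, and WKY 1-5 was the highest array of all. Adra2b averaged 3.36 ± 0.15 in SHR and 3.72 ± 0.31 in WKY (SD, n = 5 each), and the log2 difference of −0.35 ± 0.14 SE (95% interval −0.66 to −0.04) did not pass (limma adjusted p = 0.184). With normexp it passed, at −0.42 (limma adjusted p = 0.0475).

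Adra2c encodes the alpha-2C receptor, which also restrains transmitter release. Its levels were −3.03, −3.30, −3.58, −3.09 and −2.91 in SHR 2-1, 2-3, 3-1, 3-3 and 3-4, against −2.75, −2.92, −3.03, −2.79 and −2.96 in WKY 1-2, 1-3, 1-5, 4-1 and 4-2. The lowest 3 values were of SHR arrays, SHR 2-1 was level with WKY 1-5, and SHR 3-4 lay among the WKY arrays. Adra2c averaged −3.18 ± 0.26 in SHR and −2.89 ± 0.12 in WKY (SD, n = 5 each), a log2 difference of −0.29 ± 0.12 SE (95% interval −0.56 to −0.03, limma adjusted p = 0.202). With normexp, whose offset narrows the differences of dim probes such as this one, the difference was −0.07.

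**Figure D1:**
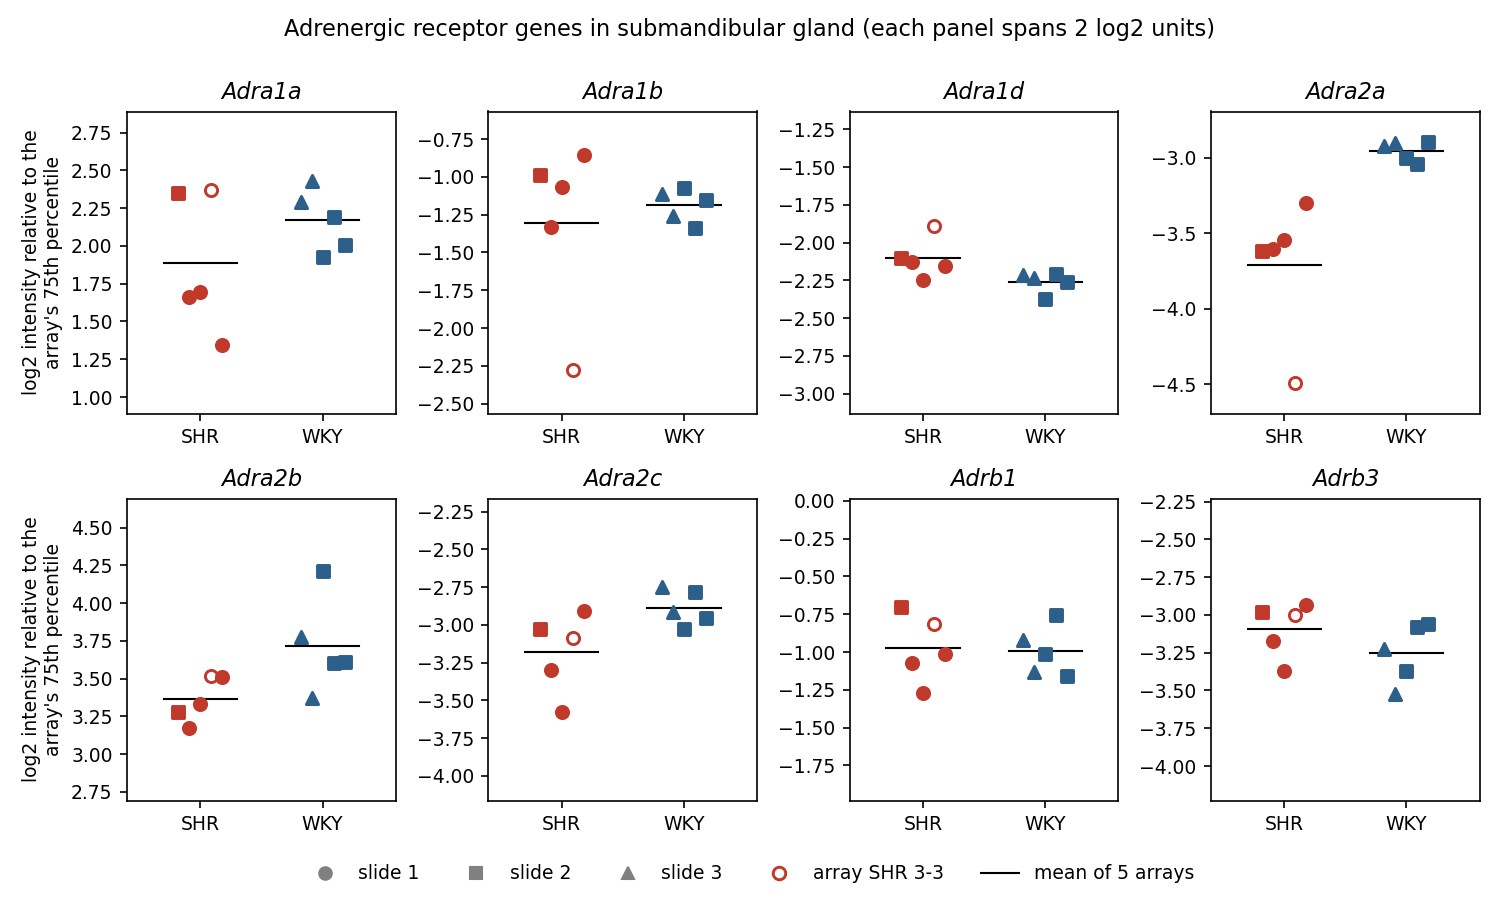
Log2 intensity relative to the array's 75th percentile (vertical axis) for the 8 adrenergic receptor genes, with SHR arrays left and WKY arrays right in each panel, a marker shape per slide, an open circle for array SHR 3-3 and a line at each mean of 5 arrays. The SHR arrays lie below all WKY arrays in the Adra2a panel alone, and SHR 3-3 lies far below the other SHR arrays for Adra1b and Adra2a.

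Among the alpha-1 receptors, Adra1a encodes the alpha-1A receptor, a calcium-mobilising receptor. Its level was 2.35, 1.67, 1.69, 2.37 and 1.35 in SHR 2-1, 2-3, 3-1, 3-3 and 3-4, against 2.29, 2.43, 1.93, 2.19 and 2.01 in WKY 1-2, 1-3, 1-5, 4-1 and 4-2. The SHR arrays fell apart into SHR 2-1 and 3-3, at the level of the highest WKY arrays, and the other 3, below all WKY arrays. Adra1a averaged 1.89 ± 0.46 in SHR and 2.17 ± 0.21 in WKY (SD, n = 5 each), and the log2 difference of −0.28 ± 0.19 SE (95% interval −0.70 to 0.14) did not pass (limma adjusted p = 0.435).

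Adra1b encodes the alpha-1B receptor. Its level was −0.99, −1.33, −1.07, −2.28 and −0.86 in SHR 2-1, 2-3, 3-1, 3-3 and 3-4, against −1.11, −1.26, −1.08, −1.34 and −1.15 in WKY 1-2, 1-3, 1-5, 4-1 and 4-2. Apart from SHR 3-3, with a gap of −1.21 to the average of its strain mates, the values of the strains ran through each other. The log2 difference was −0.12 ± 0.22 SE (95% interval −0.60 to 0.36, limma adjusted p = 0.812), from −1.30 ± 0.57 in SHR and −1.19 ± 0.11 in WKY (SD, n = 5 each). Without SHR 3-3 it turned to 0.13.

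Adra1d, for the alpha-1D receptor of blood vessels, was the 1 receptor spotted 10 times on each array, and the log2 intensities of its spots had an SD of 0.09 to 0.21 within an array. The array means were −2.10, −2.13, −2.24, −1.89 and −2.15 in SHR 2-1, 2-3, 3-1, 3-3 and 3-4, against −2.22, −2.24, −2.38, −2.21 and −2.26 in WKY 1-2, 1-3, 1-5, 4-1 and 4-2. Among the SHR arrays 4 lay above all WKY arrays and SHR 3-1 lay within them. Adra1d averaged −2.10 ± 0.13 in SHR and −2.26 ± 0.07 in WKY (SD, n = 5 each), a log2 difference of 0.16 ± 0.08 SE (95% interval −0.03 to 0.34) that did not pass (limma adjusted p = 0.324).

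The beta receptors were not called. Adrb1, whose beta-1 receptor is the classic secretory receptor of salivary cells, had levels of −0.70, −1.08, −1.27, −0.81 and −1.01 in SHR 2-1, 2-3, 3-1, 3-3 and 3-4, against −0.92, −1.13, −1.01, −0.76 and −1.16 in WKY 1-2, 1-3, 1-5, 4-1 and 4-2. The WKY values all lay inside the range of the SHR values. Adrb1 averaged −0.97 ± 0.22 in SHR and −1.0 ± 0.17 in WKY (SD, n = 5 each). The log2 difference of 0.02 ± 0.12 SE (95% interval −0.24 to 0.29, limma adjusted p = 0.939) was smaller than the spread within either strain.

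Adrb3 encodes the beta-3 receptor, best known from fat cells. It stood at −2.98, −3.17, −3.37, −3.0 and −2.94 in SHR 2-1, 2-3, 3-1, 3-3 and 3-4, against −3.22, −3.52, −3.37, −3.08 and −3.06 in WKY 1-2, 1-3, 1-5, 4-1 and 4-2. The 3 highest values were of SHR arrays and the remaining values overlapped. The log2 difference was 0.16 ± 0.12 SE (95% interval −0.10 to 0.41, limma adjusted p = 0.480), from −3.09 ± 0.18 in SHR and −3.25 ± 0.20 in WKY (SD, n = 5 each). Of 6 adipocyte markers tested 0 passed, against 4.36% of all genes, with a median difference of −0.19 and 5 of the 6 below 0. An unadjusted limma p below 0.05 was met by 2 of them (Fabp4 and Lpl, both lower in SHR), against 20.3% of all genes. The mean level of the 6 was −2.49 to −1.98 in SHR and −2.20 to −1.49 in WKY.

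Slide 2 alone held both strains. On it SHR 2-1 differed from the mean of the 3 WKY arrays by −0.64 in Adra2a, −0.53 in Adra2b and −0.11 in Adra2c. In Adra2a and Adra2b SHR 2-1 lay below each of the 3 WKY arrays, and in Adra2c it was level with WKY 1-5. With the slide as a block the differences are the same, since they rest on SHR 2-1, and no receptor passed (limma adjusted p above 0.99 for all 8). The Adra1a difference turned to 0.31 and that of Adra1b to 0.20, while Adra1d stood at 0.18, Adrb1 at 0.28 and Adrb3 at 0.19.

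**Figure D2:**
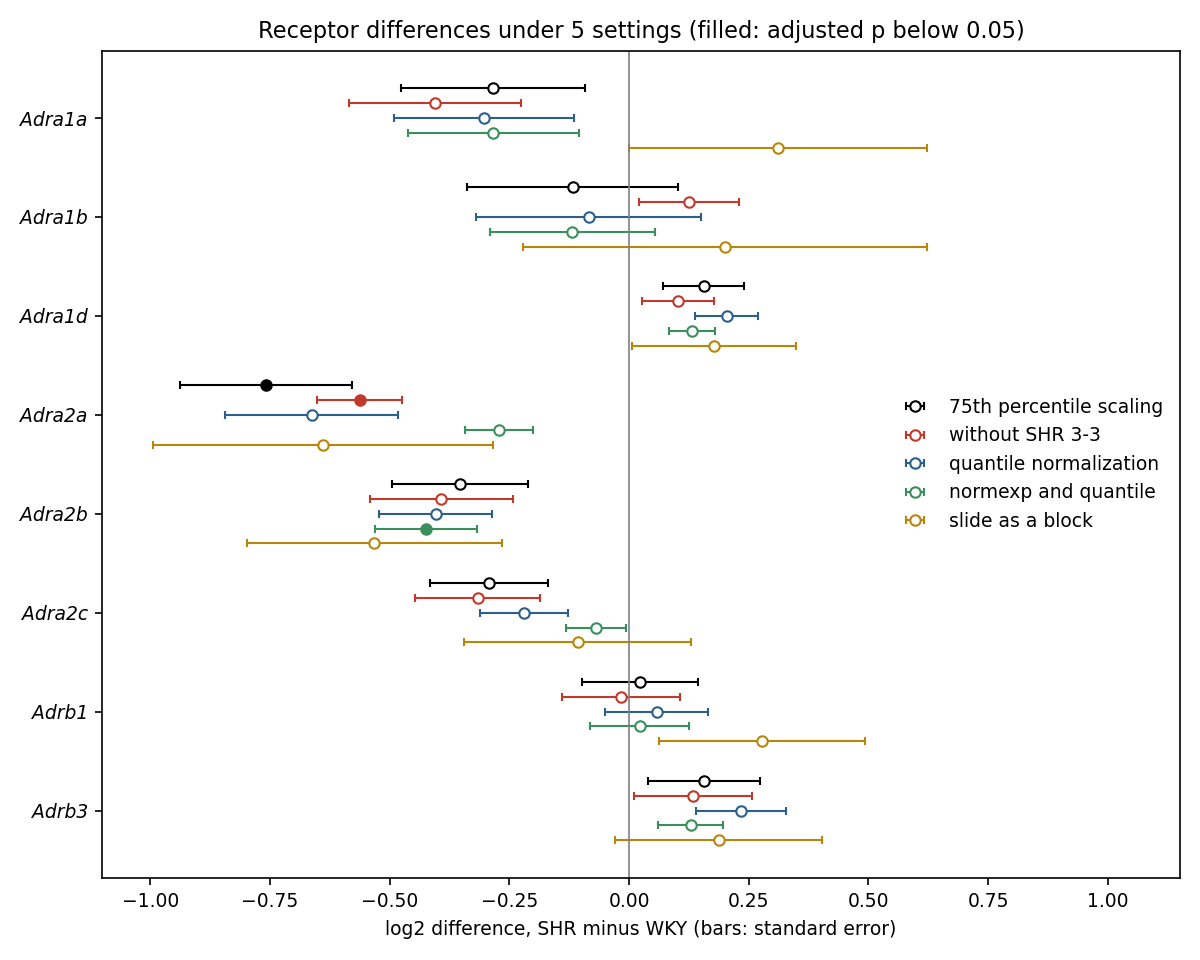
Log2 differences, SHR minus WKY, with standard errors (horizontal axis) for the 8 receptor genes under 5 settings, filled where the adjusted p was below 0.05. Adra2a lies between −0.76 and −0.27 in all 5 and is filled in 2, Adra2b is filled with normexp correction, and Adra1a changes sign with the slide as a block, Adra1b with it and without SHR 3-3, and Adrb1, near 0, without SHR 3-3.

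Genes of noradrenaline synthesis, storage, uptake and breakdown numbered 12, of which 11 were tested and 0 passed, against 4.36% of all genes. Their RNA was measured in the gland, and noradrenaline itself was not. Their median difference was 0.06, with a range of −0.10 to 0.23. The members include Th, tyrosine hydroxylase, the rate-limiting enzyme of noradrenaline synthesis (0.06 ± 0.16 SE), and Slc6a2, the noradrenaline transporter of nerve endings (0.10 ± 0.07). The largest differences were those of Slc22a3, an extraneuronal monoamine transporter (0.23 ± 0.16, limma adjusted p = 0.436), and Maoa, a monoamine oxidase (0.16 ± 0.10, 0.358). Sympathetic nerve markers, which share 3 tested genes with this list, had 0 of 7 past the threshold, again against 4.36% of all genes. Their mean level was −0.93 to −0.70 in SHR and −1.02 to −0.67 in WKY. Th, which averaged 5.58 in SHR and 5.51 in WKY, raised that mean, since every other marker of the list averaged below 0. The nerve supply of the gland was not measured.

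Of 16 G protein subunit genes tested, 1 rose, 0 fell and 15 did not pass, against 4.36% of all genes called, with a median difference of 0.00. Gna14, an alpha subunit of the Gq family, stood at −0.43, −0.51, 0.16, −0.45 and −0.31 in SHR 2-1, 2-3, 3-1, 3-3 and 3-4, against −0.78, −0.91, −0.79, −0.69 and −0.97 in WKY 1-2, 1-3, 1-5, 4-1 and 4-2. All SHR arrays lay above all WKY arrays, and SHR 3-1 was the highest. Gna14 was 1.44-fold higher in SHR (log2 difference 0.52 ± 0.12 SE, n = 5 per strain, limma adjusted p = 0.0351). The call was lost when SHR 3-4 or a single WKY array, whichever it was, was left out (limma adjusted p up to 0.0943), with normexp (0.0522) and with the mean of all its probes (0.42, 0.0977). Gnas, the Gs alpha subunit used by beta receptors, had a log2 difference of 0.11 ± 0.13 SE. Of the Gi alpha subunits used by alpha-2 receptors, Gnai1 had the largest difference of the list and did not pass (0.79 ± 0.22 SE, limma adjusted p = 0.0634). Its levels were −1.95, −1.98, −1.35, −2.85 and −1.86 in SHR 2-1, 2-3, 3-1, 3-3 and 3-4, against −2.89, −2.48, −3.02, −2.66 and −2.88 in WKY 1-2, 1-3, 1-5, 4-1 and 4-2, and SHR 3-3 alone lay within the WKY range. Gnai2 differed by 0.00 ± 0.08 and Gnai3 by 0.02 ± 0.08.

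Cyclic AMP signalling was represented by 24 tested genes, of which 1 rose, 1 fell and 22 did not pass (median difference −0.06), again beside 4.36% of all genes. Both calls were regulatory subunits of protein kinase A, the kinase that cyclic AMP activates. Prkar2b, the type II beta subunit, stood at −0.11, −0.07, −0.14, 0.11 and −0.18 in SHR 2-1, 2-3, 3-1, 3-3 and 3-4, against 0.27, 0.39, 0.55, 0.54 and 0.36 in WKY 1-2, 1-3, 1-5, 4-1 and 4-2. Prkar2b was 1.42-fold lower in SHR (log2 difference −0.50 ± 0.09 SE, n = 5 per strain, limma adjusted p = 0.00730), and the strains did not overlap. Prkar1a, the type I alpha subunit, stood at 1.74, 1.79, 1.47, 1.61 and 1.45 in SHR 2-1, 2-3, 3-1, 3-3 and 3-4, against 1.17, 1.16, 1.29, 1.16 and 1.36 in WKY 1-2, 1-3, 1-5, 4-1 and 4-2. It was 1.30-fold higher in SHR (0.38 ± 0.09, limma adjusted p = 0.0363), again without overlap. The Prkar1a call was lost without SHR 2-1 or 2-3 or WKY 1-2, 1-3, 1-5 or 4-1 (limma adjusted p up to 0.0977). The catalytic subunits Prkaca (−0.05 ± 0.14) and Prkacb (0.03 ± 0.12) did not pass, nor did any of the 8 adenylyl cyclase genes tested.

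Phospholipase C and calcium release genes had 0 of 10 past the threshold, against 4.36% of all genes, and a median difference of −0.03. An unadjusted limma p below 0.05 was met by 3 of the 10, against 20.3% of all genes: Plcb1, higher in SHR, and Prkcd and Prkce, lower. In these 3 the strains did not overlap, where 7.25% of all genes had no overlap. Itpr2, a calcium release channel of the inositol trisphosphate receptor family, had the largest difference (−0.53 ± 0.27 SE, limma adjusted p = 0.290), with levels of −2.58 to −0.95 in SHR and −1.28 to −0.65 in WKY. SHR 3-3 gave its lowest value. Plcb1, a phospholipase C that Gq activates, differed by 0.29 ± 0.09 SE (limma adjusted p = 0.0940). With the mean of all its probes the difference was 0.17 (limma adjusted p = 0.233).

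Among 12 receptor kinases, arrestins and regulators of G protein signalling, 0 rose, 1 fell and 11 did not pass (median difference −0.03), beside the same 4.36%. Rgs2, a regulator that switches off Gq signalling, stood at 1.54, 1.17, 1.42, 1.03 and 1.43 in SHR 2-1, 2-3, 3-1, 3-3 and 3-4, against 1.99, 2.22, 1.86, 1.85 and 2.00 in WKY 1-2, 1-3, 1-5, 4-1 and 4-2. Every SHR array lay below every WKY array. Rgs2 was 1.59-fold lower in SHR (log2 difference −0.66 ± 0.12 SE, n = 5 per strain, limma adjusted p = 0.00635). Grk2, the receptor kinase that starts desensitisation of beta receptors, had a difference of −0.48 ± 0.17 SE (limma adjusted p = 0.131), and the arrestin genes Arrb1 (−0.03) and Arrb2 (−0.20) did not pass. Over all 5 lists 4 of 73 genes were called, 5.48%, near the 4.36% of all genes tested. With the slide as a block none of the 4 passed, and the differences, which rest on SHR 2-1, were 0.39 for Gna14, −0.59 for Prkar2b, 0.47 for Prkar1a and −0.36 for Rgs2.

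**Figure D3:**
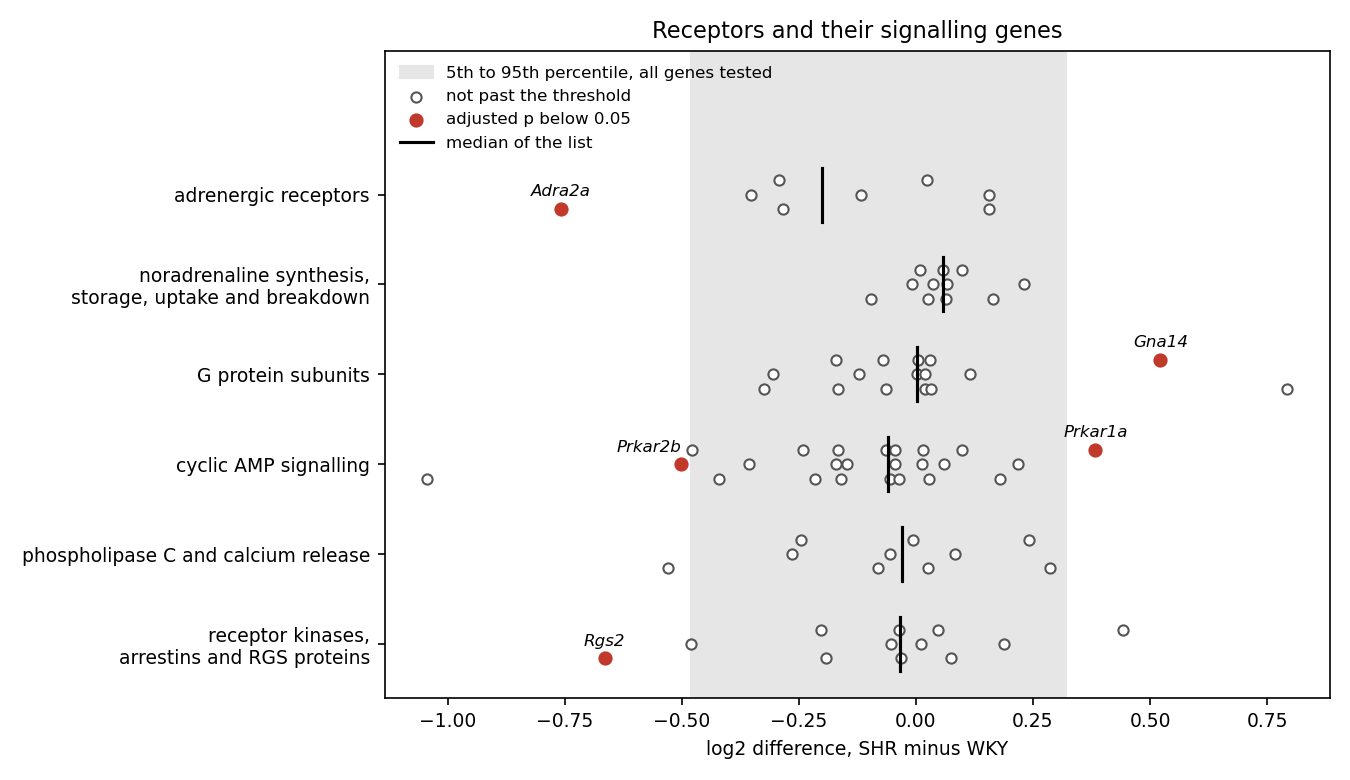
Log2 differences, SHR minus WKY (horizontal axis), of the 8 receptors and of the genes tested in 5 signalling lists, red where the adjusted p was below 0.05, with a line at each list's median and a grey band from the 5th to the 95th percentile of all genes tested. Of the receptors Adra2a alone is red, and of the 73 signalling genes Gna14, Prkar2b, Prkar1a and Rgs2 are.

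In whole gland, fewer cells of a type and less RNA per cell cannot be told apart. Of all genes 4.36% were called, 2.85% as lower, and 53.4% had differences below 0. Among macrophage markers 2 of 5 fell (Cd68 and Aif1) and 5 of 5 had differences below 0. Their mean level was −0.87 to −0.12 in SHR and 0.07 to 0.36 in WKY, without overlap. The granular duct list moved with SHR 3-3, whose mean level over 4 genes was 3.25. That level was 6.11 to 6.58 in the other SHR arrays and 6.25 to 6.54 in WKY. The members did not move alike: the SD over SHR arrays was 0.25 in Klk1, 1.21 in Klk1c2, 2.00 in Egf and 2.29 in Klk1c12. SHR 3-3 was also the lowest SHR array in Adra1b and Adra2a, and the highest in Adra1a, Adra1d and Adra2b. It was the lowest SHR array for the macrophage, smooth muscle and adipocyte lists as well. For the acinar and skeletal muscle lists it was the highest. Of 5 acinar markers 2 fell (Smgc, with a log2 difference of −4.10, and Prpmp5, with −1.73), and the other 3 did not pass and had differences above 0 (Aqp5 0.38, Bhlha15 0.33 and Slc12a2 0.23), so that the list's median difference was 0.23. The mean level of the acinar list, 2.13 to 2.57 in SHR and 3.02 to 3.38 in WKY, was lower in SHR through Smgc and Prpmp5. Of 6 smooth muscle, 4 endothelial and 5 skeletal muscle markers 0 passed. Smooth muscle markers had a mean level of 0.33 to 0.82 in SHR and 0.40 to 0.65 in WKY. All tested markers of these lists were above background on all 10 arrays. The part of these cell types in the receptor values was not tested.

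**Figure D4:**
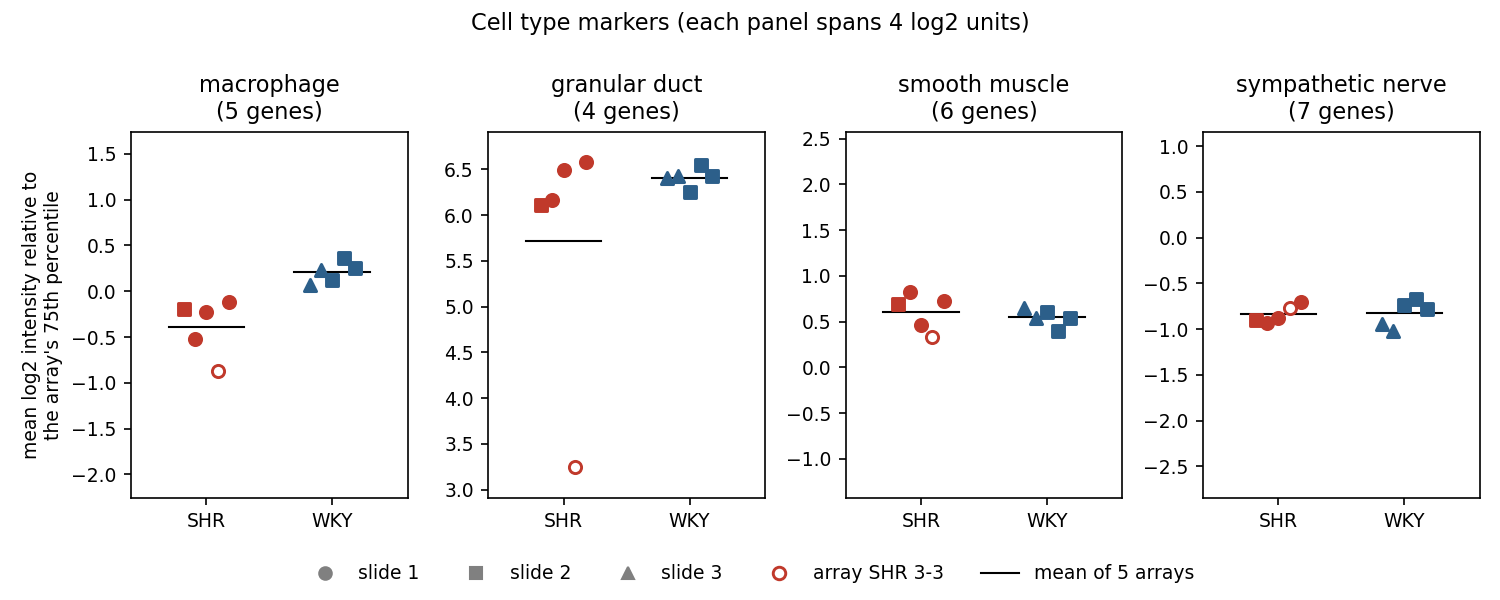
Mean log2 intensity relative to the array's 75th percentile (vertical axis) of 4 lists of cell type markers, with SHR arrays left and WKY arrays right, a marker shape per slide and an open circle for array SHR 3-3. The macrophage list lies lower in all SHR arrays than in any WKY array, and the granular duct list is at 3.25 in SHR 3-3, against 6.11 or more in all other arrays.

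Calls over all genes were 65.4% lower in SHR with scaling to the 75th percentile, 52.0% with normexp, 50.9% with quantile normalisation, 53.5% with scaling to the median and 50.6% with the authors' log2 values. The differences in Adra2a, Adra2b and Adra2c kept a sign below 0, and those in Adra1d and Adrb3 a sign above 0, under each of these scalings.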

How the data were processed

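Per the labels' protocols, the authors extracted total RNA with Trizol, amplified it and labelled it with Cy3. Per the file headers, scans were read with Agilent Feature Extraction 11.0.1.1, and the processed signal is a background-subtracted, linear intensity without scaling across arrays. Every column of log2 values that the authors deposited has a median of 7.19; the steps behind them are not given in the sources used.

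Here log2 processed intensity was reduced by each array's 75th percentile (control probes left out). Outlier-marked spots became missing values, repeated spots were averaged, and 29266 of 30367 probes, those above background in 5 or more arrays, were kept. RefSeq accessions (assembly GRCr8) named 18005 probes with 1 gene each, 0 with several and 12362 with none, and the brightest kept probe stood for a gene. SHR was compared with WKY in limma 3.58.1 under R 4.3.3 (lmFit, eBayes, two-sided, no covariates), with Python 3.11.15 and matplotlib 3.10.9 for figures. The labels give separate rats. Normexp (offset 50) ran on the median signal, where a mean signal had been planned.

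On simulated data for SHR minus WKY over 14711 genes, of 50 genes changed by each size the fit recovered 60% at a log2 difference of 0.5, 90% at 1 and 100% at 2 and 4, with 8 false calls among 183. Named genes are the 8 receptors, in each signalling list up to 4 called members with the largest differences or, where none was called, the 2 with the largest, and for each receptor the 2 genes most like it. Other genes were named after their values were seen. The members and lists were chosen with earlier results of these data known. Alternatives were other background corrections, scalings, filters, probe rules and variance models, slide and first title number as blocks, and leaving out each array. A circular RNA profile that the design text mentions was not analysed here.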

Additional observations from a re-analysis of the deposited data

Results flagged for a closer look

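Within each strain, the gap between the lowest or highest array and its neighbour was set against the range of the 5 arrays for the 8 receptors and the 8 named signalling genes, 32 groups in all. In 3 of them the gap passed Dixon's critical value of 0.71, and chance alone flags about 1 in 20 groups. Adra2a in SHR 3-3 stood at −4.49 against −3.62 in the next SHR array, a gap of 0.731 of the range. Slc22a3 in WKY 4-1 stood at −0.31 against 0.41 in the next WKY array, a gap of 0.927 of the range. Plcb1 in WKY 4-1 stood at −0.83 against −0.63, a gap of 0.726.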

How the results depend on the processing

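Under 25 alternatives each, Adra1d and Adrb3 kept their sign and stayed short of the threshold, and the number of higher receptors stayed at 0. The number of lower receptors was 0 with quantile normalisation, the authors' values, the slide as a fixed block and slide 2 alone, and 3 with the slide as a random block; normexp gave 1, Adra2b in place of Adra2a. Of the receptor probes 1 was called with all probes tested, and 0 with quantile normalisation or the authors' values. Adra2a had a log2 difference of −0.66 with quantile normalisation and with the authors' values, −0.27 with normexp and −0.64 with the slide as a fixed block or on slide 2 alone, none of them past the threshold. Adra2b passed with normexp (−0.42) and with the slide as a random block (−0.35), as did Adra2c with that random block (−0.33). Adra1a turned to 0.31 and Adra1b to 0.20 with the slide as a fixed block and on slide 2 alone, Adra1b to 0.17 with quantile normalisation without SHR 3-3 (chosen after seeing the data), and Adrb1 to −0.056 with the slide as a random block. Without 1 array each, the difference ranged from −0.86 to −0.56 for Adra2a, −0.44 to −0.23 for Adra2b, −0.36 to −0.19 for Adra2c, −0.41 to −0.15 for Adra1a, −0.23 to 0.13 for Adra1b and −0.046 to 0.10 for Adrb1, and 0 or 1 receptor was lower.

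Of all genes 222 were higher and 419 lower. Higher genes numbered 334 with normexp, 418 with quantile normalisation, 336 with median scaling, 423 with the authors' values and 358 with quantile normalisation without SHR 3-3. With the slide as a fixed block 12 were higher and 32 lower, on slide 2 alone 14 and 38. As a random block the slide gave 1350 and 2101 and the first title number 669 and 1110; the estimated correlations within blocks were below 0 (−0.192 and −0.158), so these blocks narrowed the errors. Without 1 array, 125 to 237 were higher (144 without SHR 3-4, 132 without WKY 1-2, 125 without WKY 1-3, 144 without WKY 4-1) and 218 to 512 lower (239 without WKY 1-2, 218 without WKY 1-3, 272 without WKY 4-1). In the signalling lists 2 genes were higher and 2 lower. Higher ones numbered 1 with normexp or the mean of all probes, 4 with each random block and 0 with the slide as a fixed block or slide 2 alone; lower ones numbered 15 with the slide and 10 with the title number as a random effect and 0 with the slide as a fixed block or slide 2 alone. Without 1 array 0 to 3 were higher and 2 to 3 lower. Where no construction shows it, the cause was not tested. No paired analysis was possible because the strains share no replicate numbers in the titles. The dim probes of Adra2a, Adra2c and Adrb3, at most 5.56-fold over the lowest signal counted as above background, limit what can be read from their levels.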

Other observations

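A member of the cyclic AMP list outside the naming rule had a large difference that did not pass, and was picked after its values were seen. Pde3b, a phosphodiesterase that breaks down cyclic AMP, was over background on 2 SHR arrays and on all 5 of WKY, and its difference was −1.04 ± 0.32 SE (limma adjusted p = 0.0889), with −7.06 in SHR 3-3 and −5.60 to −4.92 in the other SHR arrays.

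After each strain's mean was taken away, each receptor was set beside the other 14710 tested genes by Pearson's r over the 10 arrays, as a description without a test. The 2 highest genes were Csn3 and Celsr3 for Adra1a, Baalc and S100a1 for Adra1b, Thoc2 and Npy2r for Adra1d, Col4a1 and Hsf4 for Adra2a, Or13n4b and Sema4a for Adra2b, Acsf2 and P2rx3 for Adra2c, Tdrp and Il36g for Adrb1, and Or10d5 and Bves for Adrb3. Their r lay between 0.944 (Il36g) and 0.984 (Or10d5), values that the highest of so many genes can reach over few arrays. Without SHR 3-3 the values for Adra2a were 0.784 (Col4a1) and 0.827 (Hsf4), against 0.979 and 0.977 with it, and those for Adra1b 0.884 (Baalc) and 0.800 (S100a1), against 0.978 and 0.976. All arrays share 1 scaling rule and 3 slides.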
